A study of Mus musculus with 6 samples.

Results

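The circRNAs described here come from genes that write, erase, read or move histone marks and nucleosomes, and from the coactivators that bring these activities to promoters and enhancers. They were taken from the circRNA table of mouse aortas by the name of the host gene: the Kdm, Kmt, Setd, Smarc, Arid, Hdac, Ncoa, Chd and Brd families with Crebbp, Ep300, Ash1l and Bptf, with 1 gene of these families left out by the rule. The rule names genes and uses no measured value, but it was set up with earlier results of these data known. Of the 10023 entries of the table, 222 met it, 210 of them exonic circRNAs and 12 intronic circRNAs (ciRNAs). After entries with starts 1 base apart were summed, they made 213 of 9548 circles, from 60 of 3981 host genes.

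Both groups were male ApoE-/- mice of the C57BL/6 strain, which lack apolipoprotein E, 6 weeks old at the start and kept on their diet for 12 weeks. The 3 HFD-fed mice received a high-fat diet with added cholesterol and cholic acid, and the 3 chow diet-fed mice, whose diet the labels call normal, served as controls. The comparison asks which circRNAs of the aorta change when lesions are made to form on a background that the controls share. Whole aortas were used, so that fewer cells of a type and less circRNA per cell cannot be told apart.

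A circRNA forms when the downstream end of an exon is spliced back to the upstream end of the same or an earlier exon. It has no free ends. Its count is the number of reads across the back-splice, which does not grow with the length of the circle. Histone acetyltransferases such as Ep300 and Crebbp and the p160 coactivators of the Ncoa family open chromatin at enhancers, deacetylases of the Hdac family reverse this, methyltransferases (Kmt, Setd, Ash1l) and demethylases (Kdm) set marks on histone tails, although not every protein with a SET domain acts on histones, and remodellers of the SWI/SNF (Smarc and Arid subunits) and Chd families move nucleosomes. In the vessel wall this machinery is known for its part in the contractile state of smooth muscle cells and in the inflammatory genes of macrophages. The values below are those of the circles and say nothing of the linear mRNA or protein.

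The junctions of 4 circles on which the results turn are shown first, each as 25 bases before the back-splice in lower case and 25 bases after it, the start of the first exon of the circle, in capitals. All are read 5′ to 3′ on the strand of the gene from the GENCODE vM21 transcripts (build GRCm38). The circle of Arid1a (mmu_circ_0001283, chr4:133719537-133723051, minus strand) joins exons 2 to 4 of 20, that of Setd3 (circRNA299, chr12:108157754-108165172, minus strand) exons 2 to 6 of 13, that of Kmt2c (mmu_circ_0012470, chr5:25347361-25353408, minus strand) exons 21 to 25 of 59, and that of Arid1b (mmu_circ_0006811, chr17:5040580-5127024, plus strand) exons 2 to 4 of 19. Those of Arid1a, Kmt2c and Arid1b lie wholly in coding exons, and that of Setd3 holds the start codon after 7 bases of the 5′ untranslated region.
Arid1a: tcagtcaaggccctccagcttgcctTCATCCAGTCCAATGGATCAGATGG
Setd3: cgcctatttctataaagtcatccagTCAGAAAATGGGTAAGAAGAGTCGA
Kmt2c: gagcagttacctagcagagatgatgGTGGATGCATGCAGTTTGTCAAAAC
Arid1b: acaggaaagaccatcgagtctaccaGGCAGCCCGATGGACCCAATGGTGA

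Arid1a and Arid1b are paralogues that encode alternative DNA-binding subunits of the same SWI/SNF complex, and their leading circles were made of the same exons, 2 to 4. Exon 2 is shown for both, chr4:133722839-133723051 on the minus strand for Arid1a and chr17:5040580-5040774 on the plus strand for Arid1b, with the bases that were the same in a global alignment in capitals. Of 182 aligned bases, 148 (81.3%) were the same, and 44 positions were gaps.
Arid1a exon 2: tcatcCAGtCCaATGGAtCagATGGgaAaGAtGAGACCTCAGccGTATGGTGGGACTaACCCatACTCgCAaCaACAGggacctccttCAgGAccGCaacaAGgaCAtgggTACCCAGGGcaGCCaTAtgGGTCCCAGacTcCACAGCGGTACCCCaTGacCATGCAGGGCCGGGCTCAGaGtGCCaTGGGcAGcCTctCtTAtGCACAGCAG
Arid1b exon 2: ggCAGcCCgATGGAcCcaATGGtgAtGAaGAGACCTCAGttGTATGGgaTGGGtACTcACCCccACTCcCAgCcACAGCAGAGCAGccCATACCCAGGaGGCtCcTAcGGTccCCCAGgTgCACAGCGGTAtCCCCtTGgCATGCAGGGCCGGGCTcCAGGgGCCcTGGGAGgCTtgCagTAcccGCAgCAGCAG
Exon 4 measured 117 bases in Arid1a and 111 in Arid1b, and 73 of 107 aligned bases (68.2%) were the same. Exon 3 measured 450 and 159 bases, which made the Arid1a circle 780 and the Arid1b circle 465 bases long. Both lengths are multiples of 3, and neither circle holds a start codon. The junction bases of both circles differ, as printed, so reads of one are told from those of the other.

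The 6 libraries held from 4694 to 7585 back-spliced reads, fewer on the HFD (4694 to 5621) than on the chow diet (7142 to 7585), and 37393 in all. The chromatin modifier and coactivator circles held 703 of these reads (1.88%), with 2.23% of the circles. Most were seen once. A single read stood behind 115 of the 213 circles (54.0%, against 47.8% of the other circles), 155 had reads in 1 aorta only (72.8%, against 72.3%), and 7 had reads in all 6 aortas (3.29%, against 2.70%). The precision is therefore that of counting a few reads. A circle without reads in an aorta may have had up to 3, a floor of 40.7 to 52.0 SRPBM, the unit to which the authors scaled their reads, and this floor covers counting error only.

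Reads were concentrated in a few genes. Ash1l led with 81 reads, followed by Chd9 with 52, Arid1a and Setd3 with 51 each, Kmt2c with 47, Ncoa2 with 35 and Arid1b with 28. The 12 genes with at least 20 reads held 449 of the 703 reads (63.9%), 12 genes had reads in all 6 aortas, and 13 genes had 1 read. By family, Arid and Kdm genes held 13.9% of the reads each, Chd and Kmt genes 12.2% each, Ash1l 11.5%, Ncoa 10.8%, Setd 10.7%, Smarc 5.83%, Crebbp and Ep300 together 3.56%, Hdac 3.27%, Brd 1.28% and Bptf 0.711%.

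**Figure D1:**
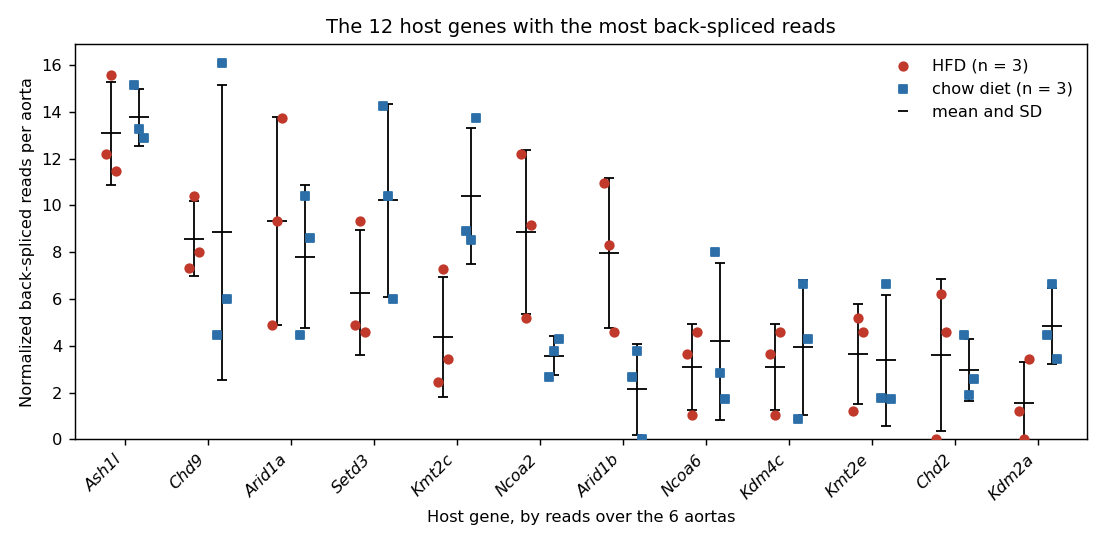
Normalized back-spliced reads (y axis, reads divided by the relative effective library size) of the 12 host genes with the most reads (x axis), 1 point per aorta, with the mean and SD of each diet. Of these 12 genes, Kmt2c, Ncoa2 and Arid1b show groups of points that do not overlap, with the HFD-fed aortas below for Kmt2c and above for Ncoa2 and Arid1b.

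As a share of all back-spliced reads of an aorta, these circles held 1.92%, 2.31% and 2.15% in the HFD-fed mice and 1.62%, 2.02% and 1.48% in the chow diet-fed mice. The lowest HFD-fed aorta lay below the highest chow diet-fed aorta, so the groups overlapped. The mean share was 2.13% ± 0.199 in HFD-fed and 1.71% ± 0.276 for the chow diet (SD, n = 3 each), a ratio of 1.25. In SRPBM, which counts reads against the whole library instead, the sums were 1842 ± 299 and 1746 ± 206, a ratio of 1.05. No test was made of this sum, since its members were chosen with results of these data known.

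Differences between the diets were tested with edgeR's quasi-likelihood test on the counts of all circles, and again on the counts summed by host gene. A circle or gene counts as called at the study's own criteria, a log2 fold change beyond 1 in either direction with an unadjusted p under 0.05. Of the 213 circles, 58 had reads in at least 2 aortas and were tested, and the 155 others held 208 reads. None of the 58 was called by edgeR, none had an unadjusted p under 0.05, and DESeq2 called none either, beside 3.40% of all 2646 circles tested. The smallest p was 0.0741, for mmu_circ_0006866 of Kdm4b, and the smallest adjusted p was 0.606. At the level of genes, 41 of 60 were tested, and the 19 others held 26 reads. Arid1b was the only one called by edgeR and by DESeq2, beside 4.46% of all 2240 genes tested, and no gene of the 41 reached an adjusted p under 0.05 (smallest 0.674).

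Normalized reads of the diets did not overlap for 3 circles that were higher on the HFD, beside 2.72% of all circles tested, and for 2 that were lower, beside 4.54%. For genes, 5 of 41 were higher without overlap, Ncoa2, Arid1b, Kdm5a, Kmt2a and Chd6, where 3.66% of all genes tested were, and 1 was lower, Kmt2c, where 5.89% were. In raw reads, the lowest HFD-fed and the highest chow diet-fed aorta tied for each of these 5 higher genes. They separated only through the library size, while Kmt2c was lower in raw reads too. How many of all genes separated only in this way was not counted. The median log2 fold change of the 41 genes was 0.01, beside -0.17 for all 2240 genes, and 21 of them (51.2%) lay above 0, beside 46.7%. For the 58 circles, the median fitted value was 0.23 beside -0.13 for all circles, but many of these have reads on 1 diet only, where the fitted value has no firm size. Over the 20 circles with more than 3 reads on a diet, with the 1 at 0 on the other diet set to the bound that 3 reads allow, the median was -0.36, beside -0.27 over 1420 of all circles treated in the same way. The sign of the circles' median therefore depended on this treatment. Treated so, the median of the genes moved from 0.01 to -0.01 over 32 genes, beside -0.24 over 1495 of all genes.

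**Figure D2:**
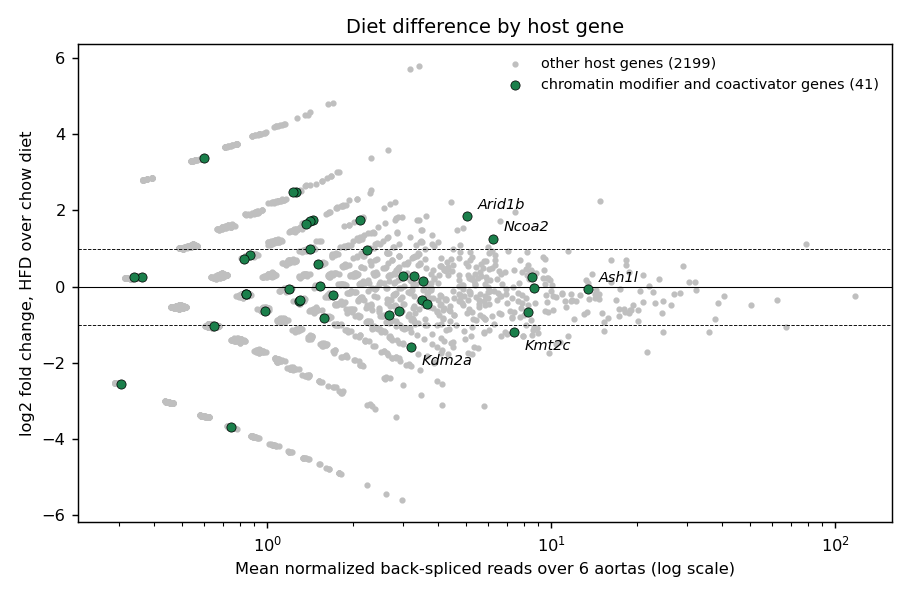
Log2 fold change, HFD over chow diet (y axis, fitted by edgeR), against mean normalized back-spliced reads over the 6 aortas (x axis, log scale) for all 2240 host genes tested, with the 41 chromatin modifier and coactivator genes as large points and dashed lines at the threshold of 1 in each direction. Values of genes with reads on 1 diet only depend on a prior count and are no measure of size. Of the 41, 9 lie above the upper line, Arid1b and Ncoa2 with the most reads among them, and 5 below the lower one, led by Kmt2c and Kdm2a, while Ash1l, with the most reads of the group, lies near 0.

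The paralogues Arid1a and Arid1b gave most reads of the Arid family. Arid1a had 4, 9 and 12 reads in the HFD-fed aortas and 5, 11 and 10 in the chow diet-fed aortas. The 2 groups covered nearly the same range. The circle of exons 2 to 4 held 49 of the 51 reads (96.1%), the largest share among the 12 genes with the most reads, and the log2 fold change of the gene was 0.26 (SE 0.59, adjusted p = 0.953, edgeR's quasi-likelihood test).

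Arid1b had 9, 8 and 4 reads in HFD-fed and 3, 4 and 0 in chow diet-fed aortas, which is 7.95 ± 3.21 against 2.15 ± 1.95 normalized reads (SD, n = 3 each). Every HFD-fed aorta lay above every chow diet-fed aorta once reads were normalized, although the lowest and the highest, 4 reads each, differed only through the library size. The log2 fold change was 1.85 (SE 0.83, adjusted p = 0.674, edgeR's quasi-likelihood test), with an unadjusted p of 0.0252. All 3 circles of the gene lie within exons 2 to 4. The circle of all 3 exons had 6, 5 and 4 reads in HFD-fed and 3, 4 and 0 in chow diet-fed aortas and was not called by itself (log2 fold change 1.42, SE 0.92, adjusted p = 0.606 in edgeR's test). The log2 fold change of this circle was 0.78 without chow diet replicate 3 and 1.95 without chow diet replicate 2. The 6 other reads came from single HFD-fed aortas, 3 from the circle of exons 2 and 3 in replicate 1 and 3 from that of exons 3 and 4 in replicate 2. The call was lost without HFD replicate 1 (log2 fold change 1.69, unadjusted p of 0.083) and without chow diet replicate 3, the aorta with no read (1.40, unadjusted p of 0.0825), and the log2 fold change was 2.46 without chow diet replicate 2.

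The other Arid genes had few reads. Arid4a, which binds DNA in a repressor complex, had 2, 1 and 3 reads in HFD-fed and 2, 0 and 0 in chow diet-fed aortas, Arid5b had 2 reads and 4 reads on the diets, Arid2, of the PBAF form of SWI/SNF, 3 and 0, and Arid3a and Arid4b 1 read each. Summed over the family, normalized reads were 20.7, 20.8 and 24.1 in HFD-fed and 8.91, 17.98 and 9.45 in chow diet-fed aortas. The normalized reads of this family did not overlap between the diets, as for no other family, while its raw reads (17, 20 and 21 against 10, 19 and 11) overlapped. The sum holds the reads of Arid1b. The 3.66% of single genes that separated in this direction is no background for a sum over several genes.

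Among the Smarc genes, Smarca2, an ATPase of SWI/SNF, had the most reads, 3, 3 and 2 in HFD-fed and 2, 0 and 3 in chow diet-fed aortas, spread over 9 circles. Smarca4, the alternative ATPase, had 0, 5 and 1 against 1, 1 and 0, of which 7 of 8 reads belonged to mmu_circ_0015450, exons 14 to 16 of 34. The groups overlapped for both genes. The whole family had 6.09, 12.5 and 6.88 normalized reads in HFD-fed and 7.13, 3.78 and 5.15 in chow diet-fed aortas, and none of its 5 genes tested was called.

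**Figure D3:**
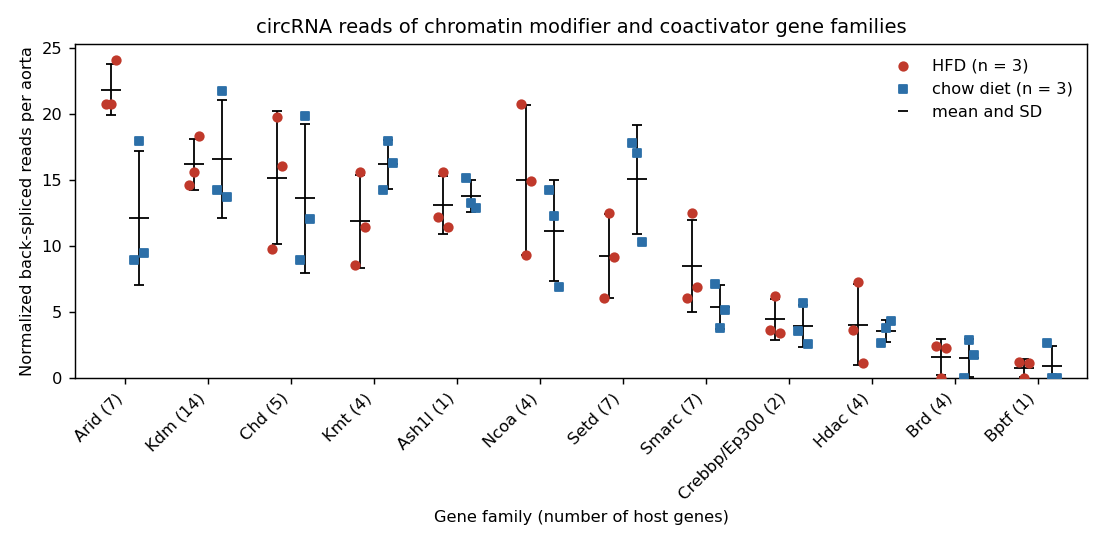
Normalized back-spliced reads (y axis) of the 12 gene families (x axis, with the number of host genes in brackets), 1 point per aorta, with the mean and SD of each diet. Of the families the Arid points of the HFD all lie above those of the chow diet, from 20.7 to 24.1 against 8.91 to 17.98, and the Setd and Kmt means are lower on the HFD with overlapping points.

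Of the p160 coactivators, which bind nuclear receptors and recruit acetyltransferases, Ncoa2 had the most reads, 10, 5 and 8 in HFD-fed and 3, 4 and 5 in chow diet-fed aortas. The lowest HFD-fed aorta and the highest chow diet-fed aorta had 5 reads each, and they separated after normalization (5.19 against 4.29 normalized reads). The log2 fold change was 1.26 (SE 0.72, adjusted p = 0.674, edgeR's quasi-likelihood test), which was not called. It passed when library size alone was used in place of TMM (log2 fold change 1.45), without HFD replicate 2 (1.61) and without chow diet replicate 3 (1.56), and it was lower without HFD replicate 1 (1.09) and without chow diet replicate 1 (1.10). The circle of exons 2 to 4 of 22, which holds the start codon, held 27 of the 35 reads (77.1%).

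Ncoa3, of the same family, had 4, 0 and 1 reads in HFD-fed and 4, 6 and 1 in chow diet-fed aortas, 13 of 16 on the circle of exons 5 to 8 of 23. Ncoa6, a coactivator that belongs to complexes with Kmt2c, had 3, 1 and 4 against 9, 3 and 2 reads, 17 of 22 on the circle of exons 3 and 4. Their groups overlapped, with log2 fold changes of -0.75 (SE 1.15) for Ncoa3 and -0.44 (SE 0.95) for Ncoa6. Ncoa1 had 3 reads, all in HFD replicate 2.

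The acetyltransferases Ep300 and Crebbp gave 25 reads. Ep300 had 2, 6 and 1 reads in HFD-fed and 1, 5 and 3 in chow diet-fed aortas, 9 on each (log2 fold change 0.28, SE 1.06), and its leading circle, exons 18 and 19 of 31 (chr15:81631614-81632512, plus strand), held 10 of 18. Crebbp had 1, 0 and 2 against 3, 1 and 0 reads. For neither gene was a difference between the diets detectable at this depth.

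Methyltransferase genes held the largest single source of circles. Ash1l, which methylates histone H3 at active genes, gave 22 circles, more than any other of the 60 genes, and none of them held more than 20 reads (24.7% of the gene). It had 10, 15 and 10 reads in HFD-fed and 17, 14 and 15 in chow diet-fed aortas, or 13.1 ± 2.20 and 13.8 ± 1.22 normalized reads (SD, n = 3 each). The groups overlapped, with a log2 fold change of -0.07 (SE 0.47, adjusted p = 0.953, edgeR's quasi-likelihood test). The sign was not stable, with 0.12 when library size alone was used in place of TMM.

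Both leading circles of Ash1l lie side by side. The first, mmu_circ_0001147 (chr3:88965812-88985790, plus strand), joins exons 2 and 3 of 28, is 5075 bases long and holds the start codon. The second, mmu_circ_0001148 (chr3:89001773-89007877), joins exons 4 and 5 in 838 bases, and the same intron of 15982 bases lies downstream of the first and upstream of the second. The first had 2, 2 and 2 reads in HFD-fed and 3, 5 and 6 in chow diet-fed aortas, lower without overlap but with a log2 fold change of -0.80 (SE 1.00). The second had 1, 3 and 4 against 4, 2 and 2. Of the 19 Ash1l circles with ends at exon ends, 9 different first exons and 10 different last exons were used, all between exons 2 and 24. Another, circRNA6772 (exons 6 to 8), had 1 read in each HFD-fed aorta and none on the chow diet, too few for a fold.

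Kmt2c, which places the enhancer mark of monomethylated histone H3, had 2, 7 and 3 reads in HFD-fed and 10, 9 and 16 in chow diet-fed aortas. Every HFD-fed aorta was lower, with 4.38 ± 2.55 against 10.4 ± 2.91 normalized reads (SD, n = 3 each). The log2 fold change was -1.20 (SE 0.65, adjusted p = 0.674, edgeR's quasi-likelihood test), which was not called. It passed without HFD replicate 2 (log2 fold change -1.70) and without chow diet replicate 2 (-1.35), and it shrank below the threshold of 1 without HFD replicate 1 (-0.83) and without chow diet replicate 3 (-0.80). The circle of exons 21 to 25 had 31 of the 47 reads (66.0%), 2, 3 and 3 in HFD-fed and 7, 6 and 10 in chow diet-fed aortas, again without overlap, and a log2 fold change of -1.11 (SE 0.82, adjusted p = 0.612 in edgeR's test). Unlike the leading circles of Arid1a, Arid1b, Setd3 and Ncoa2, it starts deep in the gene, between introns of 926 and 2322 bases.

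Kmt2e, a member of the family whose SET domain is thought to lack activity, had 1, 5 and 4 reads in HFD-fed and 2, 7 and 2 in chow diet-fed aortas over 10 circles. Of its 9 circles with ends at exon ends, 7 started at exon 2 of their own transcript, but these 7 do not share 1 start. Exons were numbered on 3 transcripts of the gene. Exon 2 began at chr5:23446526 for circRNA4559 and at chr5:23450152 for mmu_circ_0012438. Kmt5b, which methylates histone H4, had 2, 0 and 2 against 4, 2 and 0 reads, and Kmt2a 2, 3 and 1 against 0, 1 and 1. Kmt2a was higher on the HFD without overlap once reads were normalized, on 8 reads with a tie at 1 in the raw values (log2 fold change 1.71, SE 1.57). The fitted values of the related Kmt2a and Kmt2c had opposite signs, but neither gene was called, and the difference between them was not tested.

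Setd3, which methylates a histidine of actin, had 4, 9 and 4 reads in HFD-fed and 16, 11 and 7 in chow diet-fed aortas. The highest HFD-fed aorta lay within the range of the chow diet, and the log2 fold change was -0.68 (SE 0.60, adjusted p = 0.895, edgeR's quasi-likelihood test), between -1.02 without HFD replicate 2 and -0.35 without chow diet replicate 1. Its circle of exons 2 to 6 held 45 of 51 reads (88.2%). Setd2, the main trimethylase of histone H3 along transcribed genes, had 0, 2 and 4 against 4, 4 and 4 reads, 12 of 18 on the single-exon circle of exon 12 (663 bases). The other 5 Setd genes had 6 reads together.

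Histone demethylase genes were numerous and mostly thin, 14 Kdm genes with 98 reads. Kdm4c, which removes repressive methyl marks of histone H3, had 3, 1 and 4 reads in HFD-fed and 1, 7 and 5 in chow diet-fed aortas over 8 circles, and Kdm2a, which acts on methylated histone H3 at CpG islands, 1, 0 and 3 against 5, 7 and 4. The raw reads of Kdm2a did not overlap between the diets, but after normalization its highest HFD-fed and lowest chow diet-fed aorta met (3.44 and 3.43 normalized reads). Its log2 fold change was -1.59 (SE 1.08, adjusted p = 0.715, edgeR's quasi-likelihood test), and it was -0.91 without HFD replicate 2 and -2.78 without HFD replicate 3. Kdm5a, a demethylase of active promoters, had 2, 5 and 2 reads in HFD-fed and 1, 2 and 0 in chow diet-fed aortas. These did not overlap after normalization but tied at 2 raw reads (log2 fold change 1.74, SE 1.33). Kdm4b had 0, 3 and 3 against 0, 0 and 1. Of the 10 Kdm genes tested, 5 lay above 0 and 5 below, and the family sums were 16.2 ± 1.93 and 16.6 ± 4.49 normalized reads (SD, n = 3 each).

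Of the nucleosome remodellers of the Chd family, Chd9 had 6, 10 and 7 reads in HFD-fed and 5, 17 and 7 in chow diet-fed aortas. Chow diet replicate 2 stood above the 5 other aortas, which ranged from 5 to 10 reads. Its circle mmu_circ_0001714 (chr8:90932249-90933862, plus strand) is exon 3 alone, 1614 bases with the start codon, lies between introns of 82489 and 22520 bases, and held 41 of 52 reads (78.8%). The log2 fold change of the gene was -0.03 (SE 0.59, adjusted p = 0.984, edgeR's quasi-likelihood test) and that of the circle 0.01 (SE 0.67).

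Chd2 differed from Chd9 in form. It had 20 reads over 10 circles, the leading one with 5, and 0, 6 and 4 reads on the HFD against 5, 2 and 3 on the chow diet. Chd6 had 2, 3 and 1 against 0, 0 and 1 reads, apart after normalization but with a tie at 1 raw read, and its circle mmu_circ_0009537 (exons 11 to 17 of 37) had 1 read in each HFD-fed aorta and none on the chow diet. Chd1 had 5 reads, all in chow diet replicates 2 and 3.

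Readers and erasers of acetylation had few reads. Hdac9, a class IIa deacetylase that binds MEF2 factors, had 1, 2 and 0 reads in HFD-fed and 1, 2 and 4 in chow diet-fed aortas, over 7 circles. Hdac4, of the same class, had 1, 3 and 1 against 2, 1 and 1, 8 of 9 on the circle of exon 2 alone. Bptf, the largest subunit of the NURF remodeller, had 2 reads in HFD-fed aortas against 3 on the chow diet. Of these families 3 Hdac genes, 1 Brd gene and Bptf were tested, and none of them was called.

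**Figure D4:**
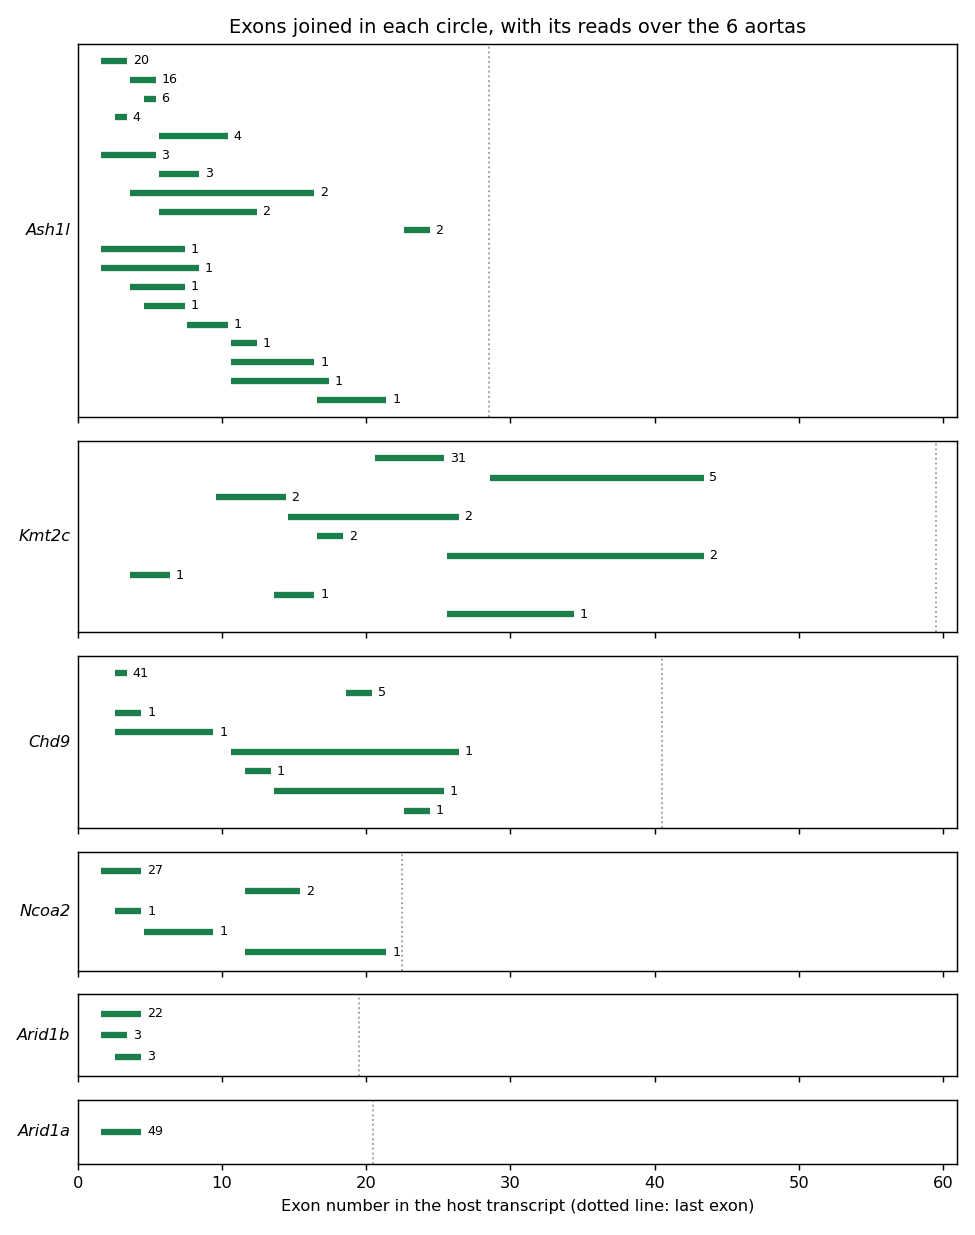
Exons joined in the circles of 6 host genes, each bar running from the first to the last exon of a circle (x axis, exon number in the GENCODE vM21 transcript), with its reads over the 6 aortas beside it and a dotted line at the end of the transcript. Circles without both ends at exon ends, and those mapped to another transcript of the gene, are not drawn. Ash1l and Kmt2c use many exon pairs along the gene, while the circles of Arid1a and Arid1b lie in exons 2 to 4.

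In structure, these circles resembled those of other genes in part. Both ends fell on exon ends for 195 of 201 exonic circles (97.0%), against 92.7% of the others. The median circle had 4 exons in both sets, with a spliced length of 677 bases against 558, from transcripts with a median of 26 exons against 17. Of the 195 circles, 42 (21.5%) started at exon 2, against 28.2%, none started at exon 1, and 1 ended at the last exon. Introns beside them had medians of 6569 bases upstream and 5100 downstream, against 7186 and 5791. Among wholly coding circles, 81 of 158 (51.3%) had a length that is a multiple of 3, against 39.98%, and 32 of 193 on coding transcripts (16.6%) held the start codon, against 14.1%. Catalogue names of the mmu_circ series were carried by 33.3% of the exonic circles and by 29.5% of the others. These shares are descriptions without a test, since circles of a gene share exons.

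The miRNA on which the study of these aortas turned, miR-17-5p, is printed from RefSeq with its seed in capitals.
mmu-miR-17-5p: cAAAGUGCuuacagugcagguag
The match to the seed, GCACTTT on the strand of the gene, was found in 15 of 195 circles (7.69%), against 5.44% of the other circles of all lengths, each with 1 match. They came from Chd2, Kdm5a, Kmt2c, Bptf and Arid4a, held at most 5 reads each, and included none of the 12 circles with the most reads. A match of letters is a description and not a site of binding.

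A technical feature of the table touched several of the leading circles. In 9 cases the table lists the same circle at 2 starts 1 base apart, as it does for 475 pairs in all, with no pair whose ends are 1 base apart. In each of the 32 cases in which an aorta had reads of such a pair, all reads were on 1 of both starts, and over the whole table reads were on both in 9 of 1672 cases. The Ncoa2 circle shows what follows. Its 25 bases at the end of exon 4 (chr1:13221307-13221331, minus strand) are printed with the base that the entry at the later start leaves off in capitals.
Ncoa2 end of exon 4: cagatccgccagatcaaagagcaaG
The entry at the exon end, mmu_circ_0000011, had 0, 4 and 0 reads in HFD-fed and 2, 3 and 5 in chow diet-fed aortas. The entry 1 base later, circRNA7131, had 7, 0 and 6 in HFD-fed and none in chow diet-fed aortas. Tested as deposited, circRNA7131 was called (adjusted p = 0.436, edgeR's quasi-likelihood test) and mmu_circ_0000011 had a log2 fold change of -1.004. Summed, the circle had 7, 4 and 6 against 2, 3 and 5 reads, with overlap, and was not called (log2 fold change 1.14, SE 0.82), though it was without chow diet replicate 3 (1.42).

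The same split was seen elsewhere without a call. For Kdm2a, the circle of 12 reads had 1, 0 and 3 reads in HFD-fed and 0, 0 and 2 in chow diet-fed aortas at the exon end, and 4, 2 and 0 on the chow diet alone 1 base later. The Ncoa3 circle had its 4 reads of chow diet replicate 2 on the later start and its 9 other reads on the first, and the Ep300 circle its 3 reads of chow diet replicate 3. The Kmt2e circle of exons 2 and 3 had 3 reads of HFD replicate 2 on the first and 3 reads of chow diet replicate 2 on the later start. Why an aorta has all reads on 1 start was not tested.

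**Figure D5:**
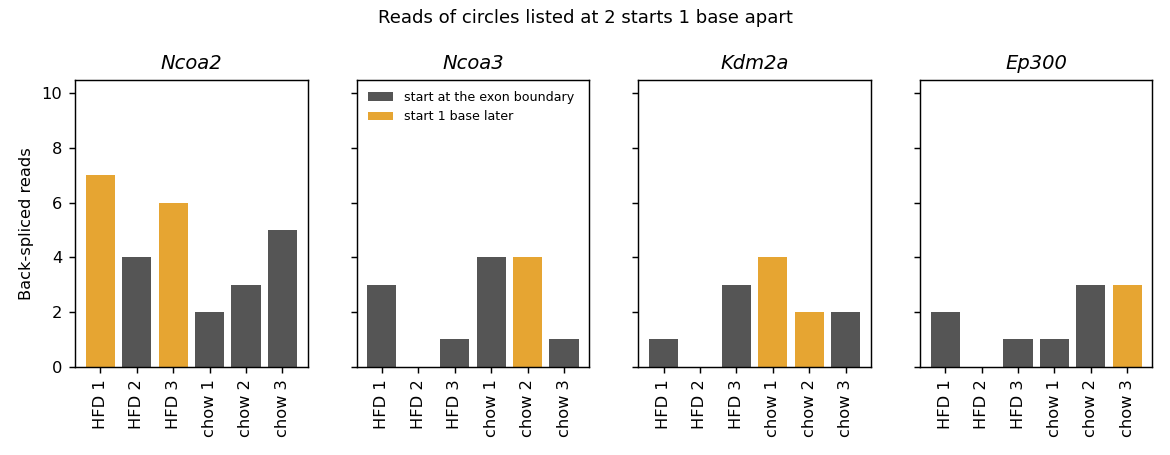
Back-spliced reads (y axis) of the 4 circles with the most reads among those listed at 2 starts 1 base apart, by aorta (x axis), stacked with the start at the exon boundary in grey and the start 1 base later in orange. Every bar has 1 colour, and for Ncoa2 the later start appears in HFD replicates 1 and 3 only.

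Other genes of the same machinery, outside the rule, were counted from a list of 104 (acetyltransferases, Polycomb, DNA methylation, Mediator and further remodeller subunits). Of these, 68 had circles, 49 were tested, and 3 were called by edgeR, beside the 4.46% of all genes. Dnmt3a, a DNA methyltransferase, was higher with 9, 2 and 0 reads in HFD-fed and 0, 0 and 1 in chow diet-fed aortas, where HFD replicate 1 held most reads. Prdm16, a regulator of brown fat that also stands in the list of adipocyte markers given below, was lower with 1, 0 and 0 against 4, 5 and 5, and Uhrf2, a reader of DNA modification, with 0, 0 and 0 against 2, 4 and 1. None had an adjusted p under 0.05 (0.674 for each). The 5 with the most reads were the acetyltransferase Kat6b with 125, the Mediator subunit Med13l with 108, the methyltransferase Nsd2 with 72, Phf21a with 48 and Ep400 with 47, and none of these was called. Kat6b had 10, 19 and 14 reads in HFD-fed and 23, 27 and 32 in chow diet-fed aortas, more than any gene of the rule. The median log2 fold change of the 49 was -0.14, beside -0.17 over all genes. Normalized reads did not overlap for 5 of them that were lower on the HFD (Kat6b, Nsd1, Baz1b, Prdm16 and Uhrf2), beside the 5.89% of all genes, and for 0 that were higher, beside 3.66%. Summed over the list, they were 158.4, 142.3 and 132.9 in HFD-fed against 171.97, 174.1 and 169.2 in chow diet-fed aortas, lower without overlap on this scale. As a share of all back-spliced reads the groups overlapped, with 130 of 4694 reads in HFD replicate 1 against 193 of 7585 in chow diet replicate 1. The normalized sums of the genes of the rule were 121.7 ± 12.7 in HFD-fed and 113.7 ± 20.8 in chow diet-fed aortas (SD, n = 3 each), with overlap.

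Circles of cell type markers are given beside these results. Their sums lay lower on the HFD without overlap for smooth muscle and adipocyte genes and higher for fibroblast genes, with 1 gene called in each of these lists, and overlapped for the other lists with reads in both diets, where none was called. For smooth muscle, 9 of 12 genes had reads, with summed normalized reads of 17.2 to 28.0 in HFD-fed and 45.4 to 61.8 in chow diet-fed aortas, mostly from Itga8 and Myocd, while Cnn1, Des and Tagln had no entry. For adipocytes, 4 of 9 genes had reads, with 2.08 to 3.44 against 8.02 to 8.59, and Adipoq, Cidec, Fabp4, Lep and Plin1 had no entry. Macrophage genes had 9.75 to 11.5 against 5.68 to 11.6 (7 of 10 with reads), endothelial genes 3.12 to 9.17 against 1.89 to 4.29 (3 of 8) and fibroblast genes 1.22 to 5.73 against 0 to 0.859 (3 of 6). The fibroblast groups, with 12 reads in all, tied at 1 raw read and separated only through the library size. Skeletal muscle genes had 10.3 in HFD replicate 3 and 3.56 in chow diet replicate 1, all other aortas being at 0 (2 of 8). T and B cell genes had 1 read and Schwann cell genes had none. The part of these cells in the values of Arid1b, Ncoa2 and Kmt2c was not tested.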

How the data were processed

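Per the labels, total RNA of mouse aortas was treated with RNase R and sequenced in pairs on strand-marked libraries, and the study's methods also name depletion of ribosomal RNA. The authors used Cutadapt for trimming, TopHat-Fusion for back-splices among unmapped reads, and CIRCexplorer and CIRI for the circRNA calls. How the callers were combined, the versions and the genome build are not given in the sources used here, and the ends were compared with the exons of GENCODE vM21 (GRCm38). The authors deposited raw counts of back-spliced reads, the values tested here, and a signal in SRPBM (reads scaled by a depth for each library), used only for the sum over members. The columns of the authors' own comparison (fold changes, p-values, q-values and marks) were not used. Host genes given as Ensembl identifiers (891) were all matched to symbols. The members, gene lists and tests were chosen with earlier results of these data known.

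Exonic and intergenic entries with the same end and starts 1 base apart were summed. Counts of all circles, and of all host genes (intergenic circles left out), with reads in at least 2 of 6 aortas were fitted with edgeR 4.0.16 (TMM, glmQLFit and glmQLFTest, R 4.3.3), with Benjamini-Hochberg adjustment over everything tested. Normalized reads are counts over the relative effective library size (0.821 to 1.16 for genes). The steps were tested on simulated counts. Named were the 12 circles and 12 genes with the most reads, every call, up to 5 circles a direction without overlap, the 5 pairs with the most reads and the leading gene of each family (that of 1 family is not reported here), and other genes were named after their values were seen. Alternatives were DESeq2 1.42.0, library size alone, the authors' depth, other filters, entries as deposited, ciRNAs left out or summed, a replicate block, and each aorta left out. Exons were aligned with Biopython 1.88. Nothing says that an aorta was pooled, and p-values measure the spread between these 3 libraries a diet. The mRNA libraries were not analysed here.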

Additional observations from a re-analysis of the deposited data

How the results depend on the processing

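With so few reads, the counts of calls moved easily, and no alternative gave a member an adjusted p under 0.05. Called circles were 0 of 58 but 2 when reads in at least 3 aortas were required (circRNA6772 and mmu_circ_0009537, with 1 read in each HFD-fed aorta), 1 with the entries as deposited (circRNA7131) and 0 to 2 with an aorta left out (2 without chow diet replicate 3, circRNA2282 of Setd2 and the Ncoa2 circle). Called genes were 1 but 2 with library size alone (Arid1b and Ncoa2) and 0 to 4 with an aorta left out, 0 without HFD replicate 1 and 4 without HFD replicate 2 (Arid1b, Arid2, Kmt2c and Ncoa2). Called genes of the wider chromatin list were 3, but 1 with DESeq2 (Dnmt3a) and 1 to 2 with an aorta left out, each time with 1 of the 3. Library size alone moved the median log2 fold change of all circles from -0.13 to 0.02 and of all genes from -0.17 to 0.02, and fitting without a filter moved them to -1.01 and -0.31, and values are read against these medians. The ratio of the summed share was 1.25 without ciRNAs, 1.23 without the circle with the most reads and 1.17 to 1.37 with an aorta left out. The ratio of the sums in SRPBM, which are not shares of back-spliced reads, was 1.05.

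Values near 0 changed sign. The Chd9 circle was at -0.055 with the authors' depth, -0.045 without a filter, -0.075 with reads in at least 3 aortas, -0.041 with entries as deposited and -0.36 to 0.72 with an aorta left out. With entries as deposited, the Ncoa2 circle was at -1.004 and the Ncoa3 circle at 0.024, which follows from leaving out the other start. The Ash1l gene was at 0.12 with library size alone, 0.11 with DESeq2 and 0.045 with at least 10 reads, and the Chd9 gene at 0.17, 0.14 and 0.10 there, 0.037 with reads in at least 3 aortas and 0.0059 without ciRNAs. With an aorta left out, the sign also changed for the Ash1l gene (-0.14 to 0.10) and its circle mmu_circ_0001148 (-0.12 to 0.68), the Arid1a gene (-0.063 to 0.68) and circle (-0.0012 to 0.71), the Ncoa6 gene (-0.77 to 0.42) and circle (-0.91 to 0.037), and the genes Chd9 (-0.33 to 0.68), Chd2 (-0.23 to 0.95), Ep300 (-0.51 to 0.85), Kdm4c (-0.80 to 0.20) and Kmt2e (-0.13 to 1.01). The cause of the other changes of sign was not tested.

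The replicate numbers come from the labels of different mice. Deviations of same-numbered aortas had correlations of -0.06, -0.05 and -0.05 over 200 circles. No sign of pairing was seen, but with so few reads a weak pairing could be missed. With the replicate number as a block, 0 circles and 1 gene (Arid1b) were called, 1 gene of the wider list (Phf21a), and the Chd9 gene was at 0.073.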
